A study of Homo sapiens with 2 samples.

Results

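The centrosome is the microtubule-organising centre of animal cells, built from a pair of centrioles inside a cloud of pericentriolar material. The genes described here are 49 of the 14884 genes named on the array, and they were taken by name. They are the genes whose symbol starts with CEP and a digit, apart from the midbody gene CEP55, together with PLK4, STIL, SASS6, CENPJ, PCNT, CDK5RAP2, NINL, ODF2, CCP110, SPICE1, OFD1 and PCM1. CENPJ stands on the array under its newer symbol, CPAP. The same rule also asked for augmin (HAUS) and gamma-tubulin (TUBG) genes and for CNTROB, CETN2 and CETN3, for which no named probe set was analysed here. Of the 49 genes, 46 encode proteins, and the rule also took the pseudogenes CEP170P1 and CEP192P1 and CEP83-DT, a long noncoding RNA divergent from CEP83.

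HT1080, an established human fibrosarcoma line, received by viral infection either a cMyc shRNA, a short hairpin RNA that lowers MYC messenger RNA, or a non-targeting control shRNA, and cells were harvested after 48 hours. There was 1 Affymetrix Human Gene 2.0 ST array for each condition. The arrays therefore have no replicates, no test was run, and each difference describes these 2 arrays. Which hairpin sequence was used, and whether the cells were a clone, is not given in the sources used here. All levels below are log2 expression values as deposited, and a difference is the cMyc shRNA array minus the control shRNA array.

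MYC, the growth-promoting transcription factor targeted by the hairpin, read 6.16 on the cMyc shRNA array and 7.09 on the control array, a difference of -0.93 (1.91-fold lower). Of the mesenchymal markers, which a fibrosarcoma should carry, FN1 read 12.6 on the cMyc shRNA array and 12.4 on the control array, and VIM read 9.34 with cMyc shRNA and 9.94 with control shRNA, while S100A4 lay below the level filter. The endothelial markers PECAM1 and VWF and the haematopoietic markers CD14 and LYZ were also below it. CD68, which many cell types carry in lysosomes, read 11.3 with cMyc shRNA and 10.4 with control shRNA, and the epithelial keratin KRT18 read 8.41 with cMyc shRNA and 9.09 with control shRNA. Of the other epithelial markers CLDN7 read 5.15 with cMyc shRNA and 4.62 with control shRNA, KRT8 and KRT19 differed by -0.68 and -0.46, and EPCAM lay below the level filter. The level filter was the median over all probe sets, 3.70, and a gene whose mean of both arrays reached it was counted as measured. Of the 49 genes 47 were measured, NINL just inside with a mean of 3.74 and CEP192P1 just outside with 3.56. CEP83-DT was the other gene outside, at 3.71 with cMyc shRNA and 3.12 with control shRNA.

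Centrioles are copied once in each cell cycle. The kinase PLK4, placed on the parent centriole by the scaffold proteins CEP192 and CEP152, binds and phosphorylates STIL, which then recruits SASS6 to form the cartwheel from which the new centriole grows. The new centriole is elongated with the help of CENPJ and CEP120 and capped by CCP110. Mother centrioles carry appendages and can template a primary cilium in cells that have left the cycle, and many CEP proteins are known from ciliary disorders.

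PLK4, STIL and SASS6, which start centriole duplication, were lower on the cMyc shRNA array, and most other members lay within 1 technical SD of 0. Of the 47 measured genes 4 were at least 2-fold lower, namely PLK4, STIL, SASS6 and CEP78. That is 8.51% of them, where 4.0% of all 10258 measured genes were that low. At least 2-fold higher was CEP19 alone, or 2.13% of the measured members, beside 2.01% of all measured genes. SASS6 (-1.09), CEP78 (-1.06) and CEP19 (1.21) passed the 2-fold rule by less than 1 technical SD. The remaining 42 lay within 2-fold. The median difference over all 47 was 0.01, with quartiles of -0.36 and 0.17, and the median over all measured genes was -0.01, with quartiles of -0.31 and 0.26. A difference of 0.34 equals 1 technical standard deviation, estimated from 416 other genes that are read by several measured probe sets. It holds the disagreement of probe sets on the same arrays and not the variation between cultures, infections or arrays. Closer to 0 than 0.34 lay 30 of the 47 members (63.8%), against 56.5% of all measured genes. Every measured member was read by 1 probe set, so none carries a repeat measurement of its own.

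**Figure D1:**
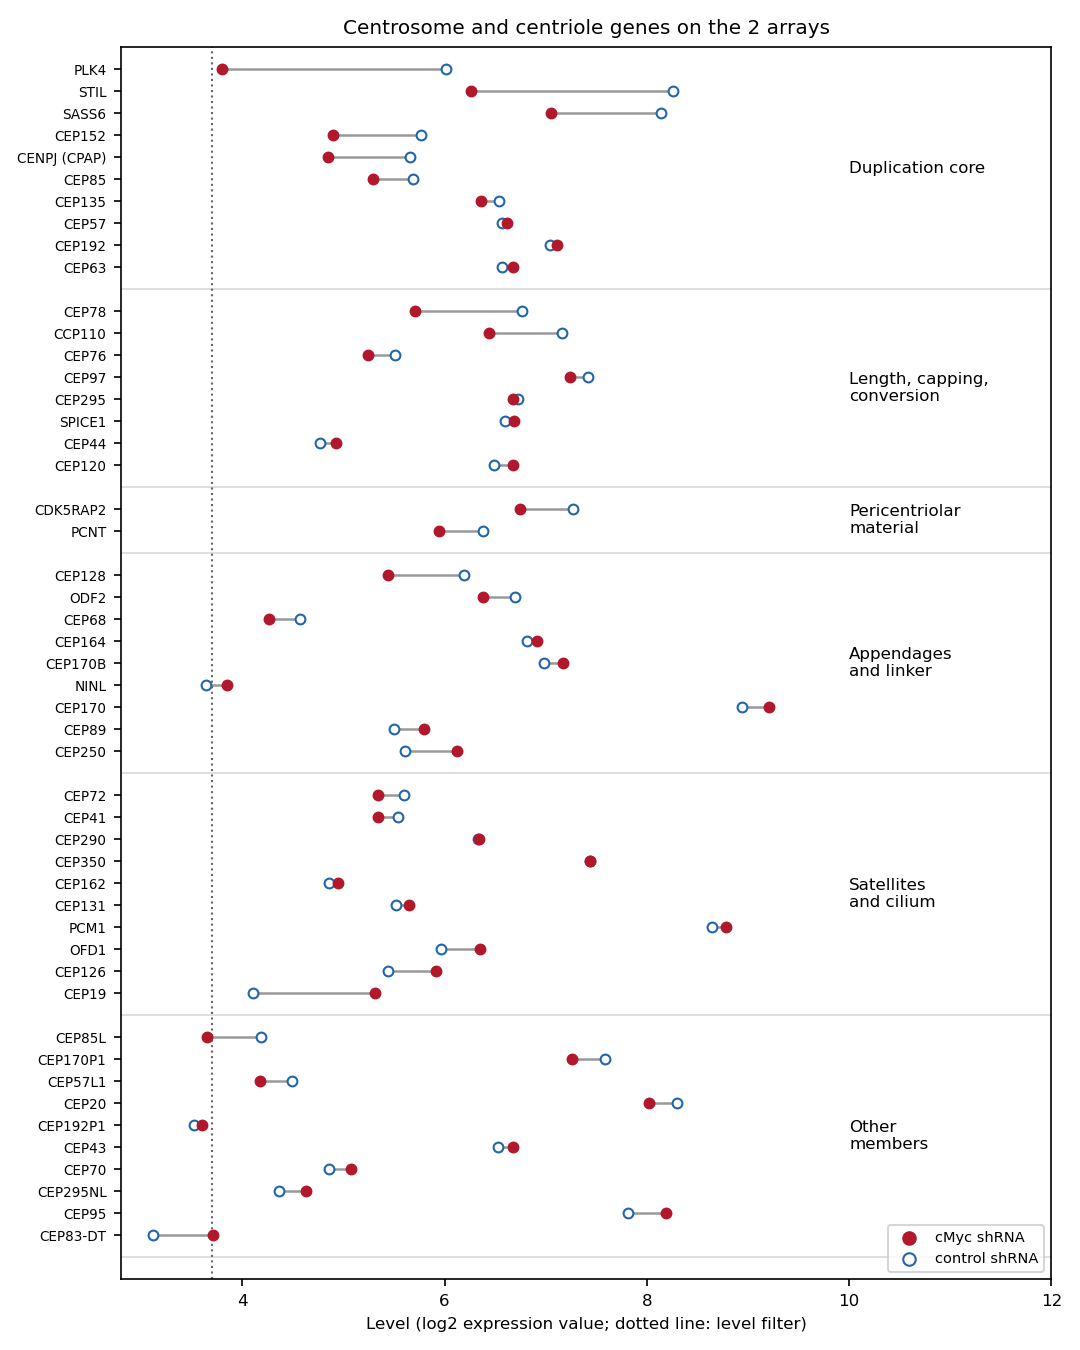
Level of each of the 49 genes (log2 expression value, horizontal axis) on the cMyc shRNA array (filled red) and the control shRNA array (open blue), grouped by role and ordered by difference, with the level filter at 3.70 as a dotted line. The long lines to the left at the top are PLK4, STIL and SASS6, and the long line to the right is CEP19.

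The duplication core held 10 genes, all measured. PLK4, the kinase that sets the number of new centrioles, read 3.79 on the cMyc shRNA array and 6.02 on the control array, a difference of -2.22 (4.67-fold lower). Among the 10258 measured genes 35 had a lower difference. Its level with cMyc shRNA lay close to the filter of 3.70 and no detection call was used here, so the size of that fold is uncertain. STIL, the PLK4 substrate that links the kinase to the cartwheel, read 6.26 with cMyc shRNA and 8.26 with control shRNA, a difference of -2.00 (3.99-fold lower), and 51 measured genes lay lower. SASS6, the structural protein of the cartwheel hub, read 7.05 with cMyc shRNA and 8.14 with control shRNA. Its difference was -1.09 (2.14-fold lower), and 323 measured genes lay lower. The kinase, its substrate and the cartwheel protein were thus the lowest 3 of all 47 measured members. SASS6 and the next member, CEP78 (-1.06), lay within 1 technical SD of each other, so their order is not settled.

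The scaffolds that position PLK4 differed among themselves. CEP152 read 4.90 on the cMyc shRNA array and 5.77 on the control array, a difference of -0.87 (1.83-fold lower), and was the member nearest to the 2-fold rule from inside it. CEP192, the other PLK4 scaffold, read 7.11 with cMyc shRNA and 7.04 with control shRNA, a difference of 0.07. CEP63 and CEP57, which form a ring with CEP152 around the parent centriole, differed by 0.12 and 0.06. CENPJ, which adds tubulin to the growing wall, read 4.84 with cMyc shRNA and 5.66 with control shRNA, a difference of -0.82 (1.76-fold lower). CEP85, a STIL-binding protein, differed by -0.39 and CEP135, which joins the cartwheel to the centriole wall, by -0.18. The core as a whole had a median of -0.61. At least 2-fold lower were 3 of its 10 genes, 6 of 10 were lower by more than 0.34 and 0 higher by more than 0.34. The median lies midway between CENPJ (-0.82) and CEP85 (-0.39), so placing a single gene in another group would move it. Over all measured genes 4.0% were at least 2-fold lower, 23.4% lower by more than 0.34 and 20.1% higher by more than 0.34.

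Promoter sequences are shown for the core genes with the lowest differences, for CEP192 as a core gene near 0, and for CEP19 as the gene that was higher, so that their letters can be compared. They are RefSeq windows of build GRCh38.p14, each 300 bases long, from 250 bases before a transcript start to 50 after it, printed 5′ to 3′ on the strand of the gene. Capitals mark matches, on either strand, to letters that many cell cycle promoters hold: the cell cycle genes homology region or CHR (TTTGAA or TTCGAA), the E2F core (TTCCCGC or TTGGCGC or TTCGCGC or TTGCCGC) and the E-box that MYC and MAX bind (CACGTG). The searched letters of different motifs did not overlap in these windows.
PLK4, first window (chr4:127880643-127880942, plus strand): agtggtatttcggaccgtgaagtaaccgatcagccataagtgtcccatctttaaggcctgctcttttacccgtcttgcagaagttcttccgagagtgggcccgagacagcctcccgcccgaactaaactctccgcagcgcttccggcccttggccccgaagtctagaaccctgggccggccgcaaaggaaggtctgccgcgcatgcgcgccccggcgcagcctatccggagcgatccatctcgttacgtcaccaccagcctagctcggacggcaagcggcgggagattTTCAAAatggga
PLK4, next window (chr4:127880982-127881281, plus strand): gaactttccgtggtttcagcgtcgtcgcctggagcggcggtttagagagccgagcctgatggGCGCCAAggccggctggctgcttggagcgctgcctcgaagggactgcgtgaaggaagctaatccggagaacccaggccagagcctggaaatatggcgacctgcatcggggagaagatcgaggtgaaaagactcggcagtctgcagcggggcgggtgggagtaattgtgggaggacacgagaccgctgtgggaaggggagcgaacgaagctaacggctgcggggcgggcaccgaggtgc
STIL (chr1:47314098-47314397, minus strand): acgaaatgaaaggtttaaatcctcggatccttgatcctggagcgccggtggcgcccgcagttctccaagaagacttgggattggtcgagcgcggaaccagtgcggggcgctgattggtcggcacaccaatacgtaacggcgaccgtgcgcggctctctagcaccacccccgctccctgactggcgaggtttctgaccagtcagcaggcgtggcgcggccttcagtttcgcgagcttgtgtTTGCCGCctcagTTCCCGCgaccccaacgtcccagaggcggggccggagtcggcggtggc
SASS6 (chr1:100132881-100133180, minus strand): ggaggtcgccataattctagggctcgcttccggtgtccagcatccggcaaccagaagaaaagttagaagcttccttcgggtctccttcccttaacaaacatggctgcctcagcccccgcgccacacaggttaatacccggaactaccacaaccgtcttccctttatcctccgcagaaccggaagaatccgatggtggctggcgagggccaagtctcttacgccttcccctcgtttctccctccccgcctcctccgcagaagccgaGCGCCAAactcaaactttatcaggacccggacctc
CEP152 (chr15:48811020-48811319, minus strand): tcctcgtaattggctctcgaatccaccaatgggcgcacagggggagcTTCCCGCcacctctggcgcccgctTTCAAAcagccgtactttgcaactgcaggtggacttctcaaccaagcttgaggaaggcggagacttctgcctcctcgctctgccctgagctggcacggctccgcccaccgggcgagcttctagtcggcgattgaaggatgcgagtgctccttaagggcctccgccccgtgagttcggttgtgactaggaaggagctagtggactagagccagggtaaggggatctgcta
CEP192 (chr18:12991112-12991411, plus strand): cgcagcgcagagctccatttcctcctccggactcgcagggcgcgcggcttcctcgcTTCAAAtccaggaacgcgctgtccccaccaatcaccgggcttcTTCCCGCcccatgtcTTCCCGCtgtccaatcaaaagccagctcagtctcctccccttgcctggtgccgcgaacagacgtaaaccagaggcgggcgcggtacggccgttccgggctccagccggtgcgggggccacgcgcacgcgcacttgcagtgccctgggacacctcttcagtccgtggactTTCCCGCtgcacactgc
CEP19 (chr3:196712201-196712500, minus strand): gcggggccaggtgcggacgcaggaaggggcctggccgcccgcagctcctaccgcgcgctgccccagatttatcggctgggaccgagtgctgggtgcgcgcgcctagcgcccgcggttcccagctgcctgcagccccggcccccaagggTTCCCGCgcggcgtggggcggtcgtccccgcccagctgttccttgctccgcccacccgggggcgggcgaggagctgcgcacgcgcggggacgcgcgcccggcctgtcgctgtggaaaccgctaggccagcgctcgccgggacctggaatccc

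In these windows PLK4 had 1 CHR match, beginning at base 289 of its first window counted from 1 at the 5′ end, and 1 E2F match, at base 63 of the next. A further PLK4 window, not printed, held no match. STIL had 2 E2F matches, at bases 241 and 253, on either side of the transcript start, and SASS6 had 1, at base 266. CEP152 had 1 match of each of these kinds. CEP192, whose difference was 0.07, had 1 CHR match and 3 E2F matches, and CEP19, which was higher, had 1 E2F match. The letters thus stood in promoters of genes that were lower, near 0 and higher. Other lower members lacked them: the windows of CENPJ (-0.82), CEP128 (-0.76) and CCP110 (-0.72), not printed, held no match of any kind. CEP78 had no window.

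Over the whole set, 40 measured members had at least 1 window, 52 windows in all, and the other 7 had none in the table. E2F letters stood in 34.6% of the members' windows, beside 13.0% of all 35116 windows and 18.2% of the windows of measured protein-coding genes. CHR letters stood in 28.8% of the members' windows, beside 16.4% of all windows and 11.8% of those of measured coding genes. The E-box stood in 7.69% of the members' windows, beside 7.26% of all windows and 9.25% of those of measured coding genes. Counted by gene, since a gene can have several windows, E2F letters were found for 40% of the members and 23.7% of 7453 measured coding genes, and CHR letters for 35% of the members and 15.2% of those genes. Members with E2F letters had a median difference of -0.23 (16 genes, from -2.22 for PLK4 to 1.21 for CEP19), and members without had 0.01 (24 genes). The 16 include PLK4, STIL and SASS6, the lowest of all measured members. Quartiles of the 16 were -0.51 and 0.07, and the gap between the medians was not tested. With CHR letters the median was -0.11 (14 genes) and without -0.09 (26 genes). The E-box was found for CEP120, CEP162, CEP63 and ODF2, none of which differed by more than 0.34. By gene that was 10% of the members, beside 12.4% of the measured coding genes. With the E-box the median was 0.10 (4 genes) and without -0.18 (36 genes). A match is a description of letters in these windows and not of binding.

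**Figure D2:**
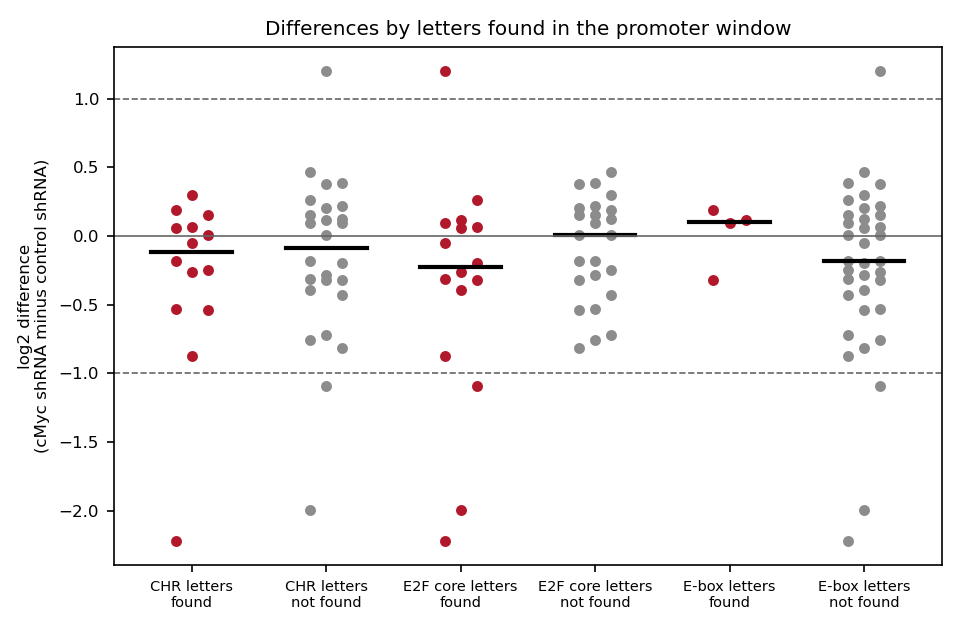
log2 difference (cMyc shRNA minus control shRNA, vertical axis) of the 40 measured members with a promoter window, split by whether CHR, E2F core or E-box letters were found (red) or not (grey), 1 point a gene, with the median as a black bar and 2-fold as dashed lines. PLK4, STIL and SASS6 are the lowest 3 points with E2F letters and CEP19 the highest, and the members with and without letters overlap over most of their range.

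Of the genes that set the length and cap of centrioles, CEP78 and CCP110 were lower and the others lay within 1 technical SD of 0. CEP78, a protein of the distal centriole known from a human retinal and hearing disorder, read 5.70 on the cMyc shRNA array and 6.76 on the control array, a difference of -1.06 (2.08-fold lower). CCP110, the cap protein that limits centriole length and holds back cilium growth, read 6.44 with cMyc shRNA and 7.16 with control shRNA, a difference of -0.72 (1.65-fold lower). These 2 of the 8 measured genes (25%) were lower by more than 0.34, beside 23.4% of all measured genes. None of the group was higher by more than 0.34, beside 20.1% of all measured genes. CEP97, the partner that brings CCP110 to the centriole, read 7.24 with cMyc shRNA and 7.42 with control shRNA, a difference of -0.18. CEP76, which restrains reduplication, differed by -0.26, and CEP295, needed for a new centriole to become a centrosome, by -0.05. SPICE1 and CEP120, which act with CENPJ in elongation, differed by 0.09 and 0.19, and CEP44 by 0.15. The 8 measured genes had a median of -0.11.

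Some other genes that act on the CCP110 cap were picked by their values, so their lying on both sides follows from the choice. USP33 and TTBK2 were the highest of the related centrosome list, and KIF24 and CCNF were named after its values were seen. KIF24, a kinesin that works with CCP110 and CEP97 against cilium growth, read 4.47 on the cMyc shRNA array and 6.07 on the control array, a difference of -1.60. CCNF, the F-box protein that marks CCP110 for degradation, read 5.63 with cMyc shRNA and 6.92 with control shRNA, a difference of -1.28. USP33, which removes ubiquitin from CCP110, read 8.08 with cMyc shRNA and 7.26 with control shRNA, a difference of 0.82. TTBK2, the kinase that licenses removal of the cap when a cilium forms, read 7.10 with cMyc shRNA and 6.15 with control shRNA, a difference of 0.95. KIF24 and CCNF were thus lower, whereas USP33 and TTBK2 were higher, both short of 2-fold. CEP97, the CCP110 partner given above, differed by -0.18. Genes picked in this way show no pattern of the cap genes as a group.

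The pericentriolar material anchors gamma-tubulin rings, from which microtubules grow, and 2 of its genes were measured. PCNT, the large scaffold pericentrin, read 5.94 on the cMyc shRNA array and 6.37 on the control array, a difference of -0.43 (1.35-fold lower). CDK5RAP2, which tethers and activates gamma-tubulin rings and is known from primary microcephaly, read 6.74 with cMyc shRNA and 7.27 with control shRNA, a difference of -0.53 (1.45-fold lower). Both lay below 0 by more than 0.34, as 23.4% of all measured genes did, and well inside 2-fold.

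Genes of mother centriole appendages and of the linker between centrioles had a median of 0.18 over 9 measured members, none of them past 2-fold. CEP128, a subdistal appendage protein, was the lowest at 5.44 on the cMyc shRNA array and 6.20 on the control array, a difference of -0.76. CEP250 (C-NAP1), the anchor of the fibres that hold the centriole pair together, was the highest at 6.12 with cMyc shRNA and 5.61 with control shRNA, a difference of 0.52. CEP68, a protein of the same linker, differed by -0.31, so the 2 linker genes lay on opposite sides of 0. The distal appendage genes CEP164 and CEP89 differed by 0.10 and 0.30, and ODF2, needed for both kinds of appendage, by -0.32. CEP170, a subdistal appendage protein, and its paralogue CEP170B differed by 0.26 and 0.18, while the pseudogene CEP170P1 differed by -0.32; probes of such close copies can read each other's RNA. NINL, a ninein-like protein that binds gamma-tubulin, differed by 0.21 at levels of 3.84 with cMyc shRNA and 3.64 with control shRNA, at the edge of the filter.

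Genes of centriolar satellites and of the ciliary base had a median of 0.11 over 10 measured members. Above 0 were 8 of the 10, or 6 when each array was centred on its median, beside 48.5% of all measured genes as deposited. CEP19, a ciliary protein that recruits the GTPase RABL2 to the mother centriole, read 5.31 on the cMyc shRNA array and 4.11 on the control array, a difference of 1.21 (2.31-fold higher), and 126 of all measured genes lay higher. CEP350 and CEP43 (FOP), the proteins that hold CEP19 at the centriole, differed by 0.01 and 0.15. CEP19 was thus higher without a like difference in the genes of its anchors. OFD1, a satellite and distal centriole protein, read 6.35 with cMyc shRNA and 5.97 with control shRNA, a difference of 0.38. CEP126 read 5.91 with cMyc shRNA and 5.44 with control shRNA, a difference of 0.47. PCM1, the scaffold of the satellites, differed by 0.13, CEP131 by 0.12, CEP72 by -0.25, and CEP290, the transition zone protein of several ciliary disorders, by 0.01. CEP41 and CEP162 differed by -0.19 and 0.09.

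**Figure D3:**
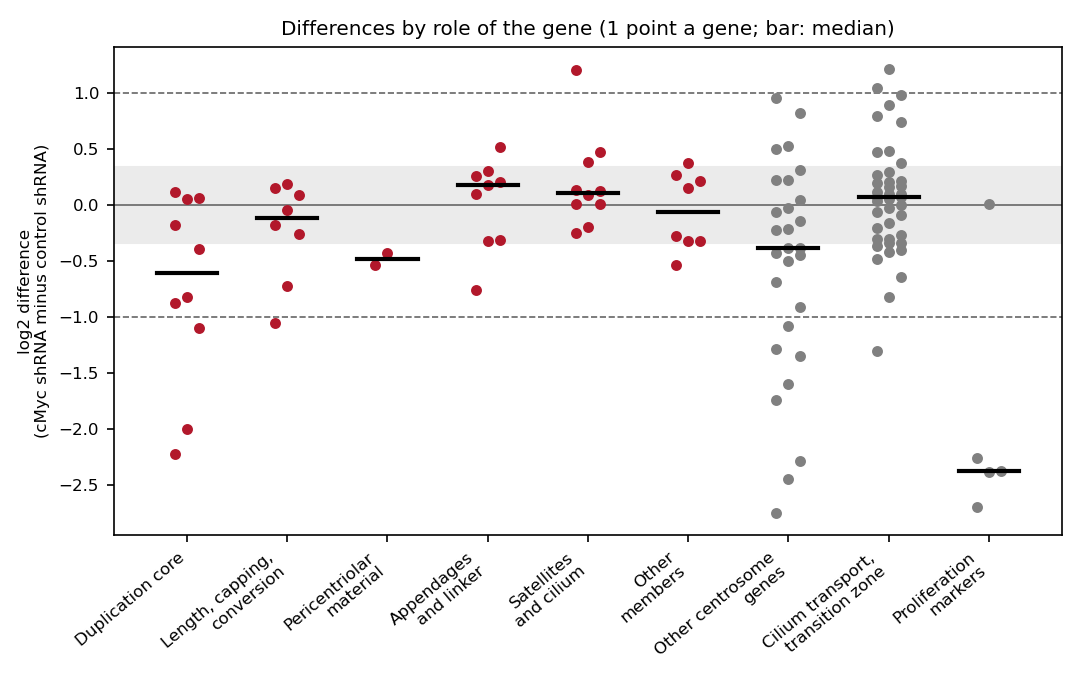
log2 difference (cMyc shRNA minus control shRNA, vertical axis) of each measured gene by role, 1 point a gene, with the median as a black bar, 2-fold as dashed lines and differences under 1 technical SD (0.34) in the grey band; members in red, related genes outside the rule in grey. The duplication core reaches -2.22 with a median of -0.61, whereas appendage and satellite genes have medians of 0.18 and 0.11.

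The remaining 8 measured members had a median of -0.06 and none reached 2-fold. CEP85L, a paralogue of CEP85, was the lowest at -0.54, with its level of 3.65 on the cMyc shRNA array under the filter and 4.18 on the control array. CEP95 was the highest at 0.38. CEP57L1, CEP20, CEP70 and CEP295NL differed by -0.32, -0.28, 0.22 and 0.27.

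**Figure D4:**
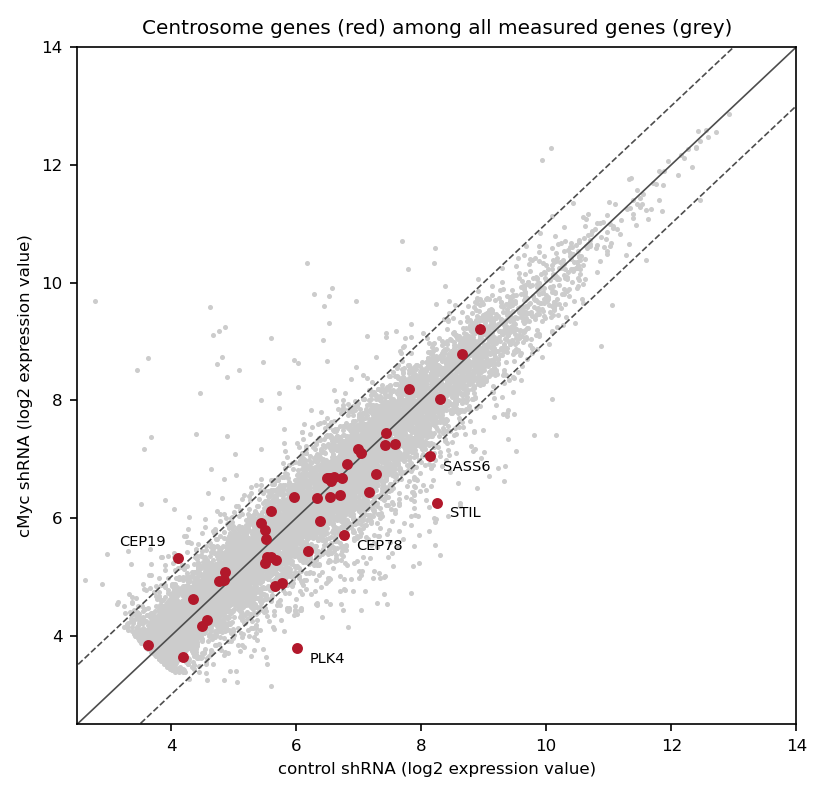
Level on the cMyc shRNA array (vertical axis) against level on the control shRNA array (horizontal axis), both log2 expression values, for the 10258 measured genes (grey) and the 47 measured members (red); the solid line marks equal levels and the dashed lines 2-fold. PLK4, STIL, SASS6 and CEP78 lie below the lower dashed line and CEP19 above the upper one.

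Genes of a related centrosome list, outside the naming rule, spread more widely on the lower side. Of 40 listed genes 28 were named and measured, and their median was -0.38. At least 2-fold lower were 8 of them (28.6%), while 0 were higher by as much, beside 4.0% lower and 2.01% higher among all measured genes. The 8 include CEP55 (-2.29), the midbody gene left out of the members, as well as ESPL1 (-1.34) and CCNF (-1.28). This list was drawn up with earlier results of these data known. Of 5 proliferation markers 4 were at least 2-fold lower too, so the share is not particular to centrosome genes. The lowest were PLK1, the mitotic kinase that also drives centrosome maturation, and NEK2, the kinase that dissolves the centriole linker. PLK1 read 7.41 on the cMyc shRNA array and 10.2 on the control array (-2.75). NEK2 read 3.15 with cMyc shRNA and 5.60 with control shRNA (-2.45). The NEK2 level with cMyc shRNA lay under the filter, so the size of that difference is uncertain. The highest were TTBK2 and USP33, given above. Genes of ciliary transport and the transition zone had a median of 0.07 over 41 measured genes, of which 1 (2.44%) was lower by 2-fold or more and 2 (4.88%) were higher by as much, beside the same 4.0% and 2.01%. The lowest were RPGRIP1L, a transition zone protein (-1.30), and WDR35, a subunit of retrograde transport (-0.82). The highest were TCTN2, a transition zone protein, at 7.70 with cMyc shRNA and 6.49 with control shRNA (1.21), and BBS9, a subunit of the BBSome (1.05).

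Of 5 proliferation markers 4 were lower on the cMyc shRNA array, as the leading duplication genes were. MKI67, TOP2A, CCNB1 and CDK1 differed by -2.70, -2.38, -2.38 and -2.26, and the replication clamp PCNA by 0.01. The linear levels of the 5 markers summed to 1107 on the cMyc shRNA array and 2638 on the control array. PCNA, at 9.59 with cMyc shRNA and 9.58 with control shRNA, was the largest part of the sum on the cMyc shRNA array. PLK4 (-2.22) and STIL (-2.00) lay just short of the 4 lower markers, and SASS6 and CEP152 lay nearer to 0. In such bulk RNA fewer dividing cells and less RNA per dividing cell cannot be told apart, and the part of proliferation in these differences was not tested. Interferon response genes also differed between the arrays. The median of 5 listed ones was 4.96, and each of them was past 2-fold higher with cMyc shRNA. Their linear levels summed to 3144 on the cMyc shRNA array and 96.5 on the control array. IFIT1 (2.78) and IFIT2 (3.63) lay under the level filter on the control array, so the size of their differences is uncertain. The part of the interferon response genes was not tested either.

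Genes next to the members past 2-fold on the chromosome were looked up after the values were seen. PSAT1 alone among the measured ones was past 2-fold itself. PSAT1, an enzyme of serine synthesis that neighbours CEP78, read 8.02 on the cMyc shRNA array and 10.1 on the control array, a difference of -2.08, lower like CEP78. The other measured neighbours lay within 2-fold. TRMT13, which starts beside SASS6, differed by 0.28, and SLC71A1, on its other side, by -0.07. MFSD8, next to PLK4, differed by 0.43. TAL1, next to STIL, and NRROS, next to CEP19, were below the level filter. Not named on the array were PIGX next to CEP19, GNAQ next to CEP78, LOC112268470 next to PLK4 and CMPK1 next to STIL.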

How the data were processed

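Total RNA of 2 HT1080 cultures was labelled and hybridised to 1 array each. The authors deposited log2 expression values for 53617 probe sets, made with Affymetrix Expression Console, per the submitters' processing notes. The sources used here do not state how background, scaling and probe set summaries were handled. The log base was inferred from the range of the values, 1.41 to 13.9. The array medians were 3.73 with cMyc shRNA and 3.68 with control shRNA. Precision is limited by the number of arrays, and no detection calls or intensities were used.

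The platform annotation of GEO named genes and gave 1 symbol to each of 16098 probe sets and several to none, and 37519 were unnamed here; RefSeq tables of GRCh38.p14 gave biotypes, neighbours, promoters and the 1 older symbol. Each gene was represented by its probe set of highest mean level. Genes were counted by a rule of 2-fold. The technical SD is that of 1 probe set's difference, from the gap between the 2 brightest measured probe sets of a gene. Members and lists were chosen with earlier results of these data known. Every measured member could be named; from the related lists the farthest 2 each way were. Calculations used pandas 2.3.3, statsmodels 0.14.6 and numpy 2.4.6 under Python 3.11.15, with figures from matplotlib 3.10.9, and were tested on simulated data. Alternatives covered scaling, filter, probe set rule, size rule, gene type and mean.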

Additional observations from a re-analysis of the deposited data

How the results depend on the processing

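Centring, quantile normalization and loess moved no member's difference by more than 0.08. PLK4, STIL, SASS6 and CEP78, lower, and CEP19, higher, stayed past 2-fold under each of these 3 scalings. With quantile normalization CEP78 lay almost exactly on the 2-fold line, so its place among the lower members is not secure. The mean over probe sets could not move a measured member, each having 1 probe set, and dropping the filter could only add genes. With the filter at the 75th percentile, which leaves 31 members, 3 passed the 2-fold rule on the lower side and 0 on the higher side, since PLK4 and CEP19 fall below it, and the duplication core, reduced to 6 genes, had a median of -0.061 in place of -0.61. That filter acts on the mean of both arrays, and PLK4, CEP152, CENPJ and CEP85 pass it on the control array and not on the cMyc shRNA array, so the lower values themselves remove these genes. A rule of 1.5-fold gave 8 lower members, adding CCP110, CEP128, CEP152 and CENPJ. The share of all measured genes was not counted for the 1.5-fold rule or the 75th percentile filter. The counts of members under these 2 settings therefore cannot be set against all genes. With means in place of medians all members had -0.18 and appendage and linker genes 0.020. Leaving out PLK4, STIL and SASS6, chosen after seeing the data, gave a median of 0.03 for all members. No paired analysis was possible because each condition has 1 array.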
